A study of Homo sapiens with 8 samples.

Results

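The 10 genes described here, CD151, TSPAN3, CD9, CD63, CD81, CD82, TSPAN1, TSPAN6, TSPAN13 and TSPAN14, code for tetraspanins. They were taken by gene name from the 43317 genes of a human expression array, with all their probes (15 of 58201), and were chosen by their ratios on these arrays and their mock levels by cell line, so these values are a description and no test was made of them. Two-colour Agilent arrays were used, each carrying Cy3-labelled RNA of mock cells, which had not been transfected, beside Cy5-labelled RNA of treated cells of the same line. In the prostate cancer line PC3 the treated cells received bisamide, a small molecule that the labels list under transfection, for 24 h or for 48 h, or miR-125b-1-3p. The line C4-2 (prostate cancer, of the LNCaP lineage) received miR-199-3p. The strands of miR-532, 5p or 3p, were given to 786-O (renal cell carcinoma), and those of miR-140, again 5p or 3p, to T24 (bladder cancer). The time after transfection was not given in the sources used here. Each of the 8 groups held 1 array, no dye swap was made, and no control RNA was transfected in the mock cells, so treatment, dye and the transfection itself cannot be told apart.

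Tetraspanins are small proteins that cross the membrane several times and gather other membrane proteins, above all integrins, immunoglobulin proteins and proteases, into shared domains. CD151 binds the laminin-binding integrins and is best known for its part in cell adhesion and migration, CD63 and CD81 are used as markers of extracellular vesicles, and CD82 is known as a suppressor of metastasis. MicroRNAs lower the level of mRNAs mainly through base pairing of their seed, near the 5′ end, with the 3′ untranslated region of the mRNA.

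The strands given to the cells are shown because their seeds (bases 2 to 8, in capitals) set which letters were searched for in the tetraspanin probes. Mature sequences, 5′ to 3′, are those of RefSeq (GRCh38.p14). The label miR-199-3p does not say which of the genes a or b was meant, but both give the same mature strand. No seed was shared between the strands.
miR-199a-3p and miR-199b-3p: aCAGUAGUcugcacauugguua
miR-125b-1-3p: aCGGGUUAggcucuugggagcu
miR-532-5p: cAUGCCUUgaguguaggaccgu
miR-532-3p: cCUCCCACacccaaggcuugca
miR-140-5p: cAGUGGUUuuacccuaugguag
miR-140-3p: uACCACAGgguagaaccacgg

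The DNA letters opposite a seed are its reverse complement, which was ACTACTG for miR-199-3p and TAACCCG for miR-125b-1-3p. It was AAGGCAT and GTGGGAG for the 5p and 3p strands of miR-532, and AACCACT and CTGTGGT for those of miR-140. Only the first of these occurred in a probe of the 10 genes, read in the sense direction in which the probes are written. ACTACTG stood in the probes of 3 genes, TSPAN3, TSPAN6 and TSPAN1, and in 234 of the 58201 probes of the array (0.402%). The windows around it are printed 5′ to 3′ with these letters in capitals and GRCh37 coordinates.
TSPAN3, chr15:77338528-77338556, minus strand: ataatgtatgcACTACTGttttaaaagaa
TSPAN6, chrX:99884308-99884336, minus strand: gactggaagggACTACTGatgttctgtga
TSPAN1, chr1:46651214-46651232, plus strand: ctgcctctgccACTACTGc

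A match is a description of the letters in a probe and not a binding site. The probe of CD151 (chr11:838770-838829, plus strand) held none of these letters, which says nothing about the rest of its mRNA.

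Each value is the log2 of the treated over the mock signal after background correction and loess within the array. A gene counts as measured when both channels of its probe were well above background, which held for 15442 to 19243 genes an array. The 300 probes spotted 10 times on each array varied with an SD of 0.0389 to 0.0527 on the log2 scale, which is the spread within an array and not that between cultures. All arrays lay on 1 slide and were read in 1 scan. KLK3, the prostate-specific antigen gene, had a raw mock signal of 13592 in C4-2, and its brightest probe was not well above background elsewhere. The renal marker CA9 was not above background in 786-O, nor were the urothelial markers UPK2, UPK3A and GATA3 in T24, whereas PAX8, a renal marker, was well above background in both lines. UPK1A, a uroplakin that is itself a tetraspanin, was measured in both channels on the T24 arrays alone. Among the PC3 mocks, that of the miR-125b-1-3p array stood apart: 112 of 18074 and 89 of 18024 genes differed by more than 1 on the log2 scale from the mocks of the 24 h and 48 h arrays, against 21 of 18434 between the latter.

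Of the 80 values (10 genes on 8 arrays), 73 were measured. Past 0.5 in size were 9 of them, 5 below −0.5 and 4 above 0.5, and they belonged to 5 genes (CD151, TSPAN3, CD63, CD82 and TSPAN1). Of all measured genes, 0.411% to 3.83% were below −0.5 on an array and 0.909% to 3.61% above 0.5. The other 5 genes were between −0.48 and 0.41 wherever they were measured, with the offset of 50. In the deposited ratio TSPAN6 with miR-199-3p (−0.92), TSPAN13 with miR-532-5p (0.63) and TSPAN14 with miR-532-3p (−0.53) and with miR-140-5p (0.55) were past 0.5 as well. The lowest values were those of CD151 and TSPAN3 with miR-199-3p and of CD63 with miR-532-3p.

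**Figure D1:**
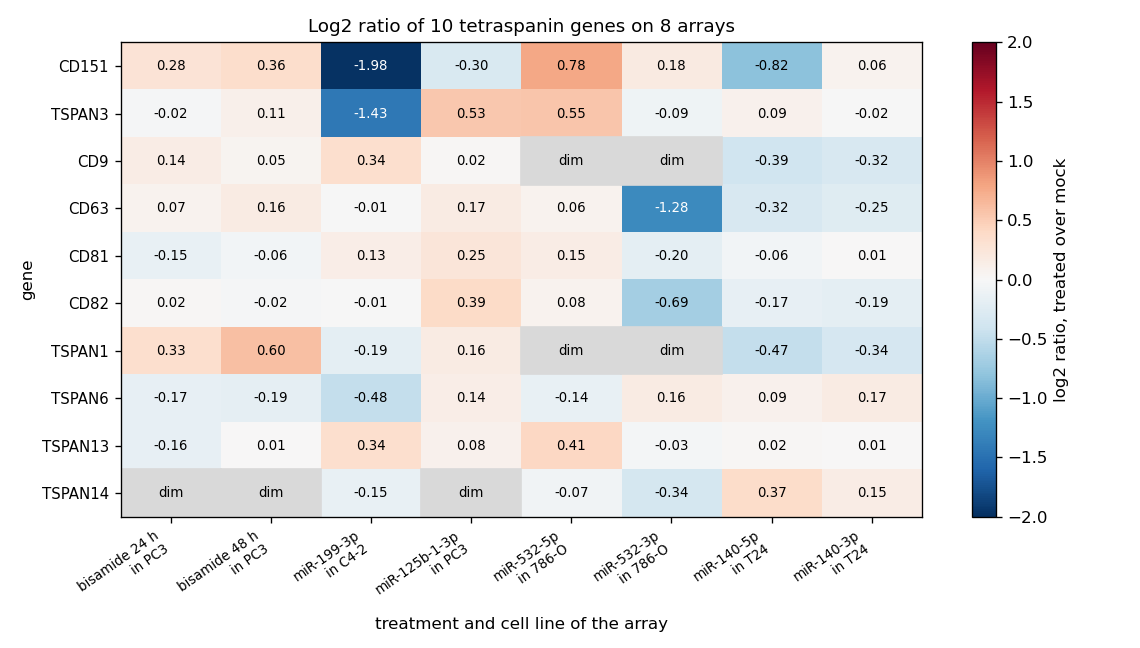
Log2 ratio of treated over mock RNA of the 10 tetraspanin genes (rows, brightest probe of each) on the 8 arrays (columns), from blue (lower) to red (higher). Grey cells marked dim were not well above background in both channels, and the darkest cell is CD151 with miR-199-3p at −1.98.

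CD151, the partner of laminin-binding integrins, had the widest range of the 10 genes. In PC3 its log2 ratio was 0.28 and 0.36 with bisamide at 24 h and 48 h and −0.30 with miR-125b-1-3p. In C4-2 it was −1.98 with miR-199-3p. The 5p and 3p strands gave 0.78 and 0.18 for miR-532 in 786-O, and −0.82 and 0.06 for miR-140 in T24. The 2 lowest values came from different cell lines and strands, C4-2 with miR-199-3p and T24 with miR-140-5p.

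With miR-199-3p in C4-2, the raw signal of CD151 was 1725 in mock cells and 673.6 in treated cells, and it was the only array on which the treated signal lay below the mock signal. On the other 7 arrays the treated signal was higher, from 4309 beside 3841 with miR-140-5p to 19394 beside 7190 with bisamide at 48 h. After normalization the level with miR-199-3p was 3.95-fold lower than in mock cells. CD151 ranked 3rd from the lowest of 15688 genes measured on that array.

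With miR-140-5p in T24, CD151 was 1.76-fold lower and ranked 119th from the lowest of 17624 genes. Its ratio with the other strand of the same hairpin, miR-140-3p, was 0.06, which put the strands 0.88 apart. The value with miR-140-5p depended on the loess step: with median centring in its place CD151 was at 0.12, where the median of all genes was 0.35. The mock signals of these arrays were nearly the same, 3841 and 3863, and the treated signals were 4309 and 8453.

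With miR-532-5p in 786-O, CD151 was 1.72-fold higher and ranked 138th from the highest of 15670 genes, and with miR-532-3p it was at 0.18. The raw signals, 5397 in mock and 9220 in treated cells with the 5p strand and 5156 and 9986 with the 3p strand, stood in the opposite order to the ratios. With median centring in place of loess the ratios were 0.79 and 0.94, where the medians of all genes were −0.03 and 0.17. Relative to these medians CD151 was at 0.82 and 0.77, so the gap between the strands was 0.60 after loess and far smaller with median centring.

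TSPAN3, a widely expressed tetraspanin, was at −0.02 and 0.11 in PC3 with bisamide at 24 h and 48 h and at 0.53 with miR-125b-1-3p. With miR-199-3p in C4-2 it was at −1.43. The values with the 5p and 3p strands were 0.55 and −0.09 for miR-532 in 786-O, and 0.09 and −0.02 for miR-140 in T24. The gene was thus low on 1 array alone and past 0.5 on 2 others. With miR-199-3p the raw signals were 236.7 in mock and 99.2 in treated cells, and the level was 2.70-fold lower.

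TSPAN3 ranked 23rd from the lowest on the miR-199-3p array, 262nd from the highest of 18693 genes with miR-125b-1-3p and 428th from the highest with miR-532-5p. Its second probe on the array, annotated to another transcript at the same locus, was not well above background in the mock channel of any array and is not read here. When both probes were averaged, the value with miR-199-3p was −0.71.

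**Figure D2:**
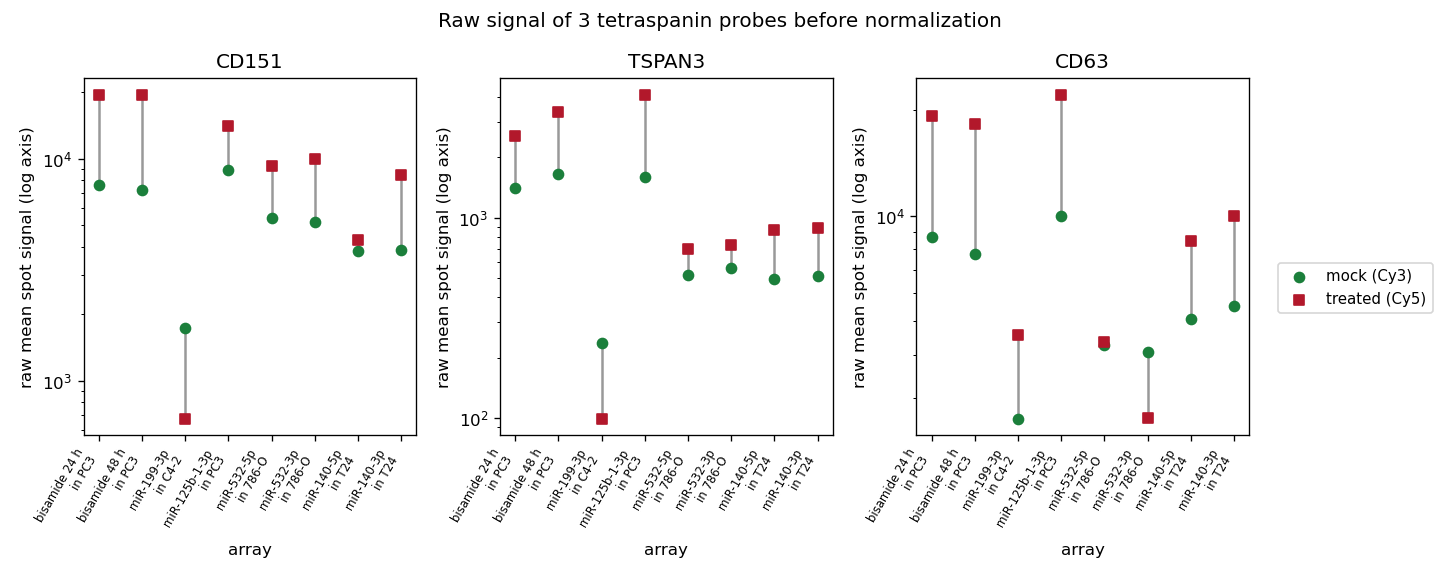
Raw mean spot signal (log axis) of the probes of CD151, TSPAN3 and CD63 on the 8 arrays, with mock RNA (Cy3) as green circles and treated RNA (Cy5) as red squares. For CD151 and TSPAN3 the red square lies below the green circle with miR-199-3p alone, and for CD63 with miR-532-3p alone.

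On the miR-199-3p array 2 of the 10 genes were below −0.5 and none was above 0.5, where 2.74% of all genes were below and 1.75% above. The share past the study's own size of 1.5 was 0.102% below, and with the processing used for these ratios CD151 alone of the 10 lay there. TSPAN3, at −1.43, was past that size with an offset of 0 (−2.002) and in the deposited ratio (−1.997). The same held without background correction (−1.78) and minus the other arrays (−1.52). TSPAN3 stayed short of it with plain background subtraction (−1.44), with median centring (−1.01) and over both probes (−0.71). TSPAN6 followed at −0.48, with raw signals of 87.2 in mock and 73.1 in treated cells. It was at −0.87 with an offset of 0 and −0.92 in the deposited ratio, which made 3 genes past 0.5. The other measured values were −0.19 for TSPAN1, −0.15 for TSPAN14, −0.01 for CD63, −0.01 for CD82, 0.13 for CD81, 0.34 for CD9 and 0.34 for TSPAN13. The median of the 10 was −0.08, beside 0.01 for all genes, and the low values were those of single genes. With median centring, relative to the median of all genes, CD9 was at 0.63 and TSPAN13 at 0.51. The absence of genes above 0.5 thus depended on loess, while CD151 and TSPAN3 stayed the only genes below −0.5.

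The genes whose probes hold the ACTACTG letters shown above thus had ratios of −1.43 (TSPAN3), −0.48 (TSPAN6) and −0.19 (TSPAN1) on that array, and CD151, whose probe does not hold them, was the lowest. Over all probes with these letters, 78 were measured there, with a median of −0.12. Below −0.5 were 15.4% of them, beside 2.45% of the 19958 measured probes of all kinds. On the other 7 arrays the share below −0.5 among probes with the letters ran from 0.962% to 9.09%. Among all measured probes of these arrays it ran from 0.339% to 3.42%. With miR-532-3p, where both were highest, 9.09% stood beside 3.42%.

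**Figure D3:**
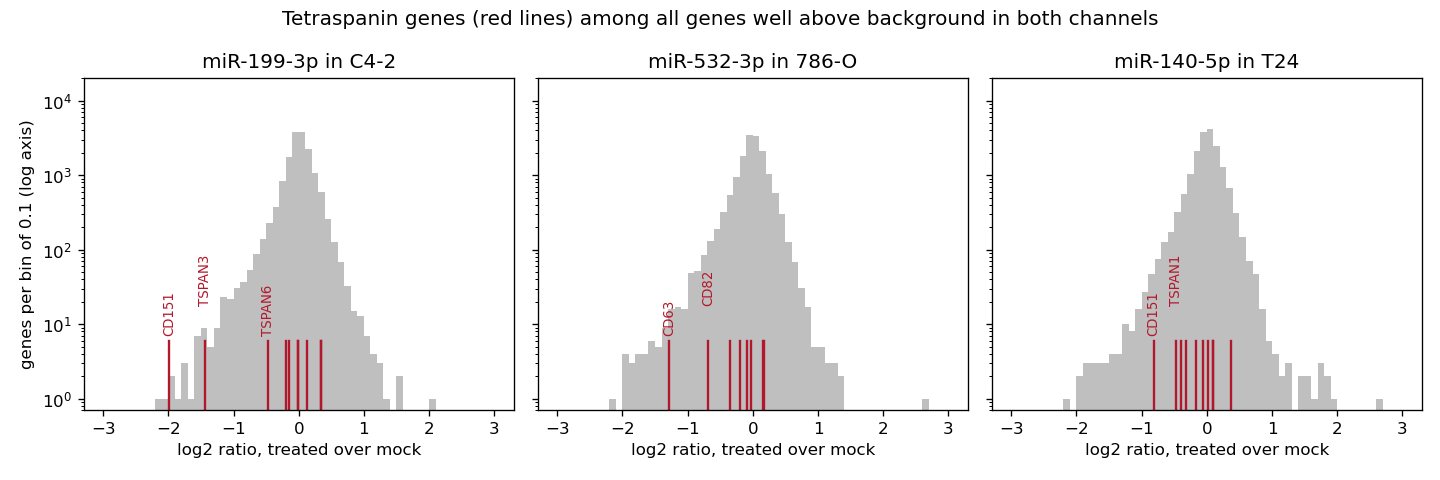
Number of measured genes (log axis) by log2 ratio in bins of 0.1 on 3 arrays (grey, treatment above each panel), with the tetraspanin genes as red lines and those past 0.45 in size named. CD151 stands at −1.98 and TSPAN3 at −1.43 in the left panel, CD63 at −1.28 in the middle and CD151 at −0.82 in the right.

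CD63 and CD82 were the low tetraspanins with miR-532-3p in 786-O. CD63, a protein of late endosomes, lysosomes and exosomes, was at −1.28 with the 3p strand and at 0.06 with the 5p strand. In PC3 it was at 0.07 and 0.16 with bisamide at 24 h and 48 h and at 0.17 with miR-125b-1-3p, in C4-2 at −0.01, and in T24 at −0.32 (5p) and −0.25 (3p). It was thus low on 1 array, where its level was 2.43-fold lower and it ranked 40th from the lowest of 15442 genes.

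The raw signals of CD63 were 4063 in mock and 2637 in treated cells for the 3p strand, and 4260 and 4347 for the 5p strand. The mock signals of the pair were thus alike while the treated signal was lower with the 3p strand, and the ratios lay 1.35 apart. Of the 10 genes this was the widest gap between the strands of a hairpin.

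CD82 was at −0.69 with the 3p strand of miR-532 and at 0.08 with the 5p strand. In PC3 it was at 0.02 and −0.02 with bisamide at 24 h and 48 h and at 0.39 with miR-125b-1-3p, in C4-2 at −0.01, and in T24 at −0.17 (5p) and −0.19 (3p). With miR-532-3p the raw signals were 464.2 in mock and 372.8 in treated cells, a level 1.61-fold lower that ranked 285th from the lowest. In the other lines CD82 was dim, with raw mock signals of 37.8 to 76.5, and the offset of 50 used in the background correction draws the ratios of such dim probes toward 0.

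With miR-532-3p, 2 of the 8 measured genes were below −0.5, where 3.83% of all genes were, and none was above 0.5 (1.71% of all genes). With miR-532-5p, also with 8 measured, the count was 0 below (3.67% of all genes) and 2 above, CD151 and TSPAN3 (3.61% of all genes). Between the strands, CD82 differed by 0.76, TSPAN3 by 0.64 and CD151 by 0.60, all higher with the 5p strand. CD81 (0.15 and −0.20) and TSPAN13 (0.41 and −0.03) were also higher with the 5p strand, and TSPAN6 (−0.14 and 0.16) was lower. With median centring, relative to the median of all genes on each array, CD63 was at 0.08 (5p) and −0.80 (3p), CD82 at −0.01 and −0.46 and TSPAN3 at 0.48 and 0.18, in the same order. CD81, at 0.10 and 0.16, was then in the opposite order. CD151, at 0.82 and 0.77, was then above 0.5 with both strands. These differences have no replicate, and the mock RNA of both arrays may be the same.

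With the miR-140 strands in T24, 1 of the 10 genes was below −0.5 with miR-140-5p, CD151, where 2.89% of all genes were below and 1.74% above. None passed 0.5 with miR-140-3p, where the shares of all genes were 1.1% below and 0.992% above. Without background correction, with an offset of 0 and in the deposited ratio, 1 gene passed 0.5 with miR-140-3p, and more than 1 with miR-140-5p. Apart from CD151, the members took similar values with both strands. CD9, which acts in cell fusion and adhesion, was at −0.39 and −0.32, CD63 at −0.32 and −0.25 and TSPAN1 at −0.47 and −0.34. The probe of TSPAN1 was dim, with raw signals of 58.1 in mock and 41 in treated cells (5p) and 63 and 59 (3p). The offset of 50 draws such ratios toward 0. With median centring CD63 lay 0.34 above the median of all genes on both arrays, so its side depended on that choice. Relative to the same medians, the only genes past 0.5 were TSPAN1 with miR-140-5p at −0.62 and CD151 with miR-140-3p at 0.62. TSPAN14, which helps the protease ADAM10 to mature, was the highest of the 10 with miR-140-5p at 0.37, and was at 0.15 with miR-140-3p.

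In PC3 with bisamide at 24 h none of the 9 measured genes was past 0.5 (0.411% of all genes below and 1.05% above), and they ran from −0.17 (TSPAN6) to 0.33 (TSPAN1). At 48 h 1 gene was above 0.5, TSPAN1, and none was below (0.883% of all genes below and 0.909% above). TSPAN1 had raw signals of 163.2 and 351.7 at 24 h and of 175.3 and 459 at 48 h, in mock and treated cells. At 48 h it was 1.51-fold higher and ranked 95th from the highest of 19023 genes. CD151 was on the same side at both times, at 0.28 and 0.36, and TSPAN6 on the other, at −0.17 and −0.19. With median centring in place of loess TSPAN6 was at 0.58 and 0.56, above the medians of all genes of 0.45 and 0.44, so its side depended on that choice. Relative to these medians CD151 was at 0.82 and 0.92, CD63 at 0.62 and 0.72 and TSPAN1 at 0.45 and 0.76. The other measured genes stayed within 0.5, so the genes counted past 0.5 also depended on the normalization.

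With miR-125b-1-3p 1 of the 9 measured genes was above 0.5, TSPAN3 at 0.53, and none was below. Of all genes, 1.77% were above and 0.883% below. CD82 at 0.39 and CD81 at 0.25 came next, and CD151 was the lowest at −0.30. The dim CD82 was at 0.71 with an offset of 0 and at 0.79 in the deposited ratio. TSPAN3 was then at 0.54 and 0.56, so CD82 was past 0.5 and above TSPAN3 in these settings. With median centring CD151 was at 0.59, above the median of all genes of 0.42, so its side depended on the normalization. Relative to that median TSPAN3 was at 0.86, CD63 at 0.66 and CD81 at 0.60, and no other measured gene was past 0.5. The median of the 9 measured genes was 0.16, the highest of the 8 arrays, beside 0.02 for all genes. These ratios are against the PC3 mock that stood apart, and its part in them was not tested.

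CD81, a tetraspanin of the B cell co-receptor and of vesicles, varied least among the genes measured on all 8 arrays, from −0.20 with miR-532-3p (0.16 above the median of all genes with median centring) to 0.25 with miR-125b-1-3p. Its second probe ran from −0.21 to 0.27 and had the same sign on 7 of 8 arrays, the exception being miR-140-3p at 0.01 and −0.02. TSPAN13 ran from −0.16 to 0.41. TSPAN14 was measured in C4-2, 786-O and T24 alone and ran from −0.34 with miR-532-3p to 0.37 with miR-140-5p.

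The mock channels show how much the lines differ before any treatment. Mock levels are log2 Cy3 signals after quantile normalization between the 8 arrays. They are compared between lines for 1 probe at a time, and probes at background lay near 5.76. In RNA of whole cultures, a lower level in every cell cannot be told apart from fewer cells with the mRNA. Between the highest and the lowest line, 8 of the 10 genes differed by more than 1, as did 29.2% of the 20452 genes well above background in the mocks of at least 1 line. The genes were chosen with these levels known, and arrays of 1 line may share a mock RNA.

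CD151 was at 12.97 and 12.98 in 786-O, 12.41, 12.37 and 12.72 in PC3, 11.82 and 11.84 in T24 and 11.30 in C4-2. The order was 786-O, PC3, T24 and C4-2, with no overlap between neighbours, and the line that received miR-199-3p had the lowest mock level. TSPAN3 was at 9.91, 10.21 and 10.05 in PC3, 9.79 and 9.92 in 786-O, 8.86 and 8.88 in T24 and 8.72 in C4-2. PC3 and 786-O overlapped, and C4-2 was again the lowest.

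CD82 stood out in 786-O, at 9.62 and 9.66. It was at 6.69 in C4-2, 6.69 and 6.65 in T24 and 6.05, 6.11 and 6.23 in PC3, all nearer to background. CD9 was instead lowest in 786-O, with the line means of C4-2, T24 and PC3 in the same order as for CD82. It was at 9.47 in C4-2, 8.89 and 8.95 in T24 and 8.28, 8.20 and 8.19 in PC3, and in 786-O it was at 5.76 and 5.77 and not well above background.

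TSPAN1 was also highest in C4-2, at 8.50, with 7.25, 7.34 and 7.41 in PC3, 6.44 and 6.49 in T24, and 5.93 and 5.97 in 786-O, where the mock channel was not well above background. By its brightest probe TSPAN14 was highest in 786-O, at 7.80 and 7.87, and it was not well above background in PC3. T24 at 6.62 and 6.60 and C4-2 at 6.53 lay between them. A second TSPAN14 probe was at 7.42 and 7.38 in 786-O, 7.41 in C4-2 and 6.35 and 6.46 in T24, so the probes disagree on the place of C4-2.

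TSPAN6 was at 9.29, 9.31 and 8.70 in PC3, 7.99 and 7.98 in T24, 7.41 in C4-2 and 7.30 and 7.27 in 786-O. The value of 8.70 was that of the miR-125b-1-3p array, whose PC3 mock stood apart, and the PC3 mocks were above the other lines with or without it. TSPAN13 was at 8.21 in C4-2, 7.92 and 7.995 in 786-O, 6.97, 6.95 and 7.48 in PC3 and 6.07 and 5.95 in T24. Here too the miR-125b-1-3p array gave the differing PC3 value, and these were the members whose level on that array lay more than 0.5 from the other PC3 mocks.

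The line means of CD63 and CD81 differed by 0.87 and 0.98 between the highest and the lowest line. CD63 ran from 11.80 in C4-2 to 12.90 in PC3, and PC3 and 786-O overlapped. CD81 ran from 9.81 in T24 to 10.86 in 786-O, in single arrays.

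**Figure D4:**
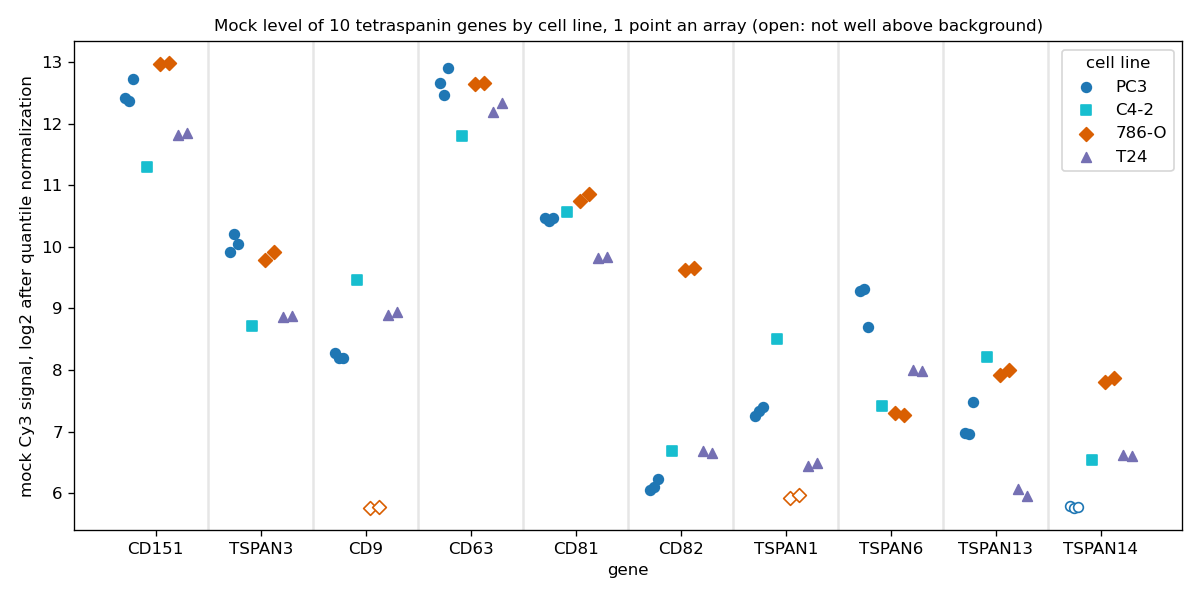
Mock Cy3 level (log2 after quantile normalization) of the brightest probe of the 10 tetraspanin genes in PC3 (3 arrays), C4-2 (1 array), 786-O and T24 (2 arrays each), with 1 point an array and open symbols where the probe was not well above background. CD82 and TSPAN14 are highest in 786-O by these probes, CD9 and TSPAN1 in C4-2 and TSPAN6 in PC3.

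Of 23 other tetraspanin genes, 9 to 12 were measured on an array. With miR-199-3p none of them passed 0.5, and they ran from −0.27 to 0.33 with a median of 0.13. On the other arrays 2 single values passed it, TSPAN10 at 0.50 with bisamide at 24 h (its other probe was at 0.05) and TSPAN5, a partner of ADAM10, at 0.55 with miR-532-5p. Above 0.5 were 1.05% and 3.61% of all genes on these arrays. None of the other tetraspanins was below −0.5 on any array.

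The laminin-binding integrin partners of CD151 (ITGA3, ITGA6, ITGA7, ITGB1 and ITGB4) were also read. With miR-199-3p 3 of the 5 were measured and none passed 0.5, the lowest being ITGA6 at −0.48. With miR-140-5p ITGA3 was at −0.58 and ITGA6 at 0.57, on opposite sides while CD151 was at −0.82. In PC3 with bisamide ITGB4, the chain of hemidesmosomes, was at 1.24 at 24 h and 1.42 at 48 h, and ITGA3 was at 0.59 at 48 h. With miR-125b-1-3p ITGA7 was at 1.05 and ITGB1 at 0.62. On the arrays of these values 0.909% to 1.77% of all genes were above 0.5. Below −0.5 were 2.89% on the array where ITGA3 was low.

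Among 8 other direct partners, CD44, the hyaluronan receptor, had the lowest value, −1.48 with miR-140-5p. On the miR-140-3p and miR-532-3p arrays it was at −0.71 and −0.54, but its other probe was at 0.14, 0.09 and 0.07 on these arrays, so the probes disagree. CLDN1, a tight junction claudin, was at −0.67 with miR-140-5p and 0.61 with miR-125b-1-3p, and the kinase PRKCA was at 0.56 with miR-532-5p. Of the protease partners ADAM10, ADAM17 and MMP14, MMP14 passed 0.5 once, at 0.52 with miR-140-5p. On the arrays with low values 1.1% to 3.83% of all genes were below −0.5. On those with high values 1.74% to 3.61% were above 0.5.

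Of 12 extracellular vesicle genes, all were measured on every array and 4 passed −0.5 on 1 array each. FLOT1, a raft scaffold protein, was at −0.68 with miR-532-3p, on the array where CD63 and CD82 were low, and FLOT2 was at −0.61 with miR-140-5p, with its other probe at −0.21. PDCD6IP, the ESCRT adaptor ALIX, was at −0.59 with miR-532-5p, with its other probes at −0.02 and −0.09. CHMP4B, an ESCRT subunit, was at −0.64 with miR-140-3p. The share of all genes below −0.5 on the arrays of these values ran from 1.1% to 3.83%.

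**Figure D5:**
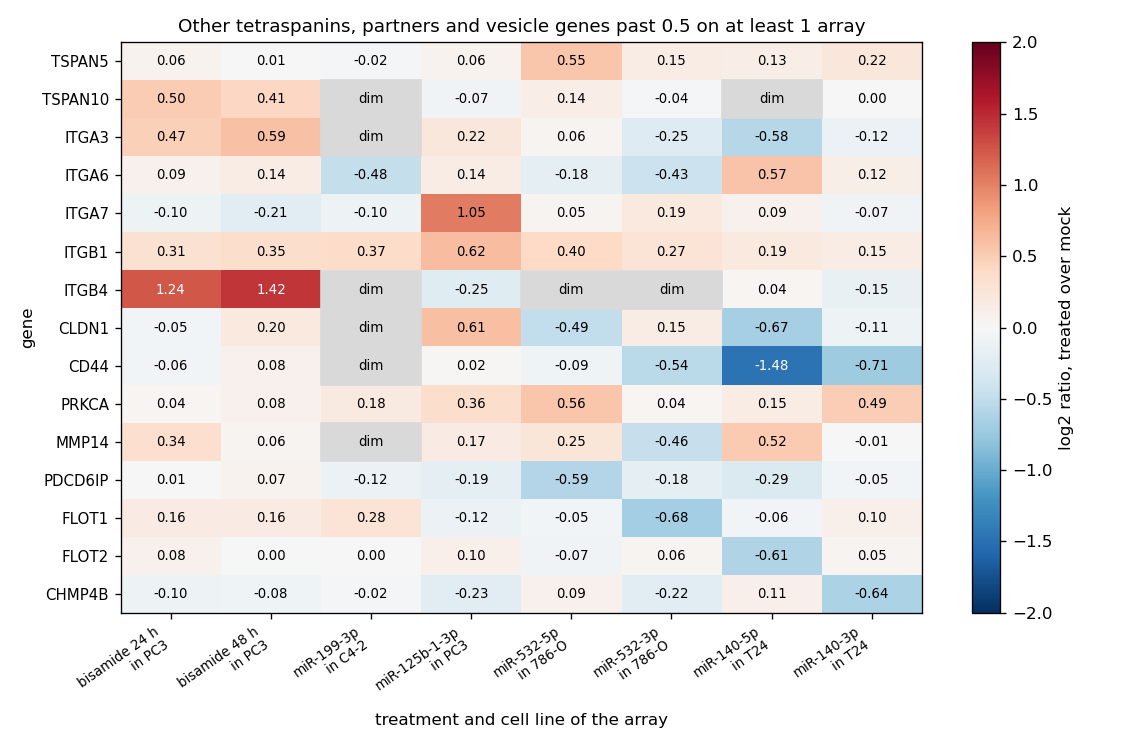
Log2 ratio of treated over mock RNA on the 8 arrays for the other tetraspanins, partner genes and vesicle genes (rows) that passed 0.5 in size on at least 1 array, with grey cells marked dim where the probe was not well above background in both channels. The values farthest from 0 are CD44 with miR-140-5p at −1.48 and ITGB4 with bisamide at 1.24 and 1.42, and the miR-199-3p column holds none past 0.5.

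The genes most like CD151 over the 8 arrays, by Pearson's r of the log2 ratio among 919 genes measured on all arrays whose ratio spanned more than 1, were PXN (0.957), DET1 (0.945), EFTUD1 (0.940), PVRL2 (0.936) and XPO7 (0.935). Those most like TSPAN3 were RNF141 (0.976), SYNGR2 (0.962), DIRC2 (0.959), G3BP2 (0.938) and KIAA1191 (0.938). All 10 were low with miR-199-3p, from −0.76 for EFTUD1 to −1.75 for SYNGR2, and the 8 points share lines, dyes and possibly mocks. CD151 and TSPAN3 had r = 0.803 with each other, and 0.155 over the 7 arrays other than that with miR-199-3p, a value added after the pattern was seen. The likeness of CD151 and TSPAN3 to each other thus rested on that array. Over the same 7 arrays the listed genes had r of 0.796 to 0.862 with CD151 and 0.613 to 0.841 with TSPAN3. These genes were picked for their r over all 8 arrays.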

How the data were processed

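RNA of 8 treated cultures was set against mock RNA on 8 two-colour arrays, and groups came from the treatment in the labels (1 array a group). Per the file headers, the authors extracted the signals using Agilent Feature Extraction (version 11.5.1.1). The deposited files give linear, unnormalized intensities per channel, a mean for the spot and a median for the surrounding background. They also hold the deposited log10 ratio of Cy5 over Cy3, dye-normalized by that software, and the series table held the same log10 ratio (largest difference 0).

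Intensities were corrected with normexp (offset 50) and normalized within arrays by loess with limma 3.58.1 in R 4.3.3. Control spots and 126 to 181 outlier spots an array were left out, spots of a probe averaged, and a gene read from its brightest probe. No spot was saturated. Mock levels were corrected the same way and quantile-normalized. The steps were tested on simulated data. Coordinates are those of GRCh37 in the files.

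The rule named all 10 tetraspanins, listed partner genes past 0.5 in size (at most 3 a list and array), and the 5 genes most like CD151 and TSPAN3. Members and lists were chosen with earlier results of these data known. With 1 array a group there was no p-value, and precision is limited by how few arrays there were. The alternatives were other background corrections, median centring, the scanner's ratio, the series table, the mean over probes, subtraction of the median of the other 7 arrays, other filters and thresholds, and for mock levels other scaling and leaving out each array. A comparison of protein sequences was not made here.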

Additional observations from a re-analysis of the deposited data

How the results depend on the processing

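No paired analysis was possible because every treatment had a single array. Of the 9 values past 0.5, 8 kept their sign under all 8 alternatives. CD151 with miR-140-5p kept it under 7 and was at 0.12 with median centring. The alternatives are not separate checks, since the scanner's ratio and the series table hold the same values. The mean over probes cannot change a gene with 1 probe, such as CD151, CD63, CD82 or TSPAN1. Median centring moved the median of all genes to between −0.03 and 0.45. Relative to that median, CD151 was at −1.63 and TSPAN3 at −1.31 with miR-199-3p, CD63 at −0.80 and CD82 at −0.46 with miR-532-3p, and CD151 at −0.23 with miR-140-5p.

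CD151 with miR-199-3p was at −2.07 without background correction, −2.08 with an offset of 0, −1.33 with median centring, −2.11 with the scanner's ratio or the series table and −2.16 minus the other arrays. TSPAN3 there was at −1.78, −2.002, −1.01, −1.997 and −1.52 in the same order, and −0.71 over both probes. The counts past 0.5 with median centring were 7 for bisamide at 24 h, 8 at 48 h, 6 for miR-199-3p, 9 for miR-125b-1-3p, 1 for miR-532-5p, 5 for miR-140-5p and 6 for miR-140-3p, not corrected for that shift. Past 1.0 they were 0 at 48 h, 0 for miR-125b-1-3p, 0 for miR-532-5p, 1 for miR-532-3p and 0 for miR-140-5p, and past 1.5 they were 1 for miR-199-3p and 0 for bisamide at 48 h and the other strands. Without background correction they were 2 for miR-125b-1-3p, 2 for miR-140-5p and 1 for miR-140-3p. With an offset of 0, the scanner's ratio or the series table they were 2, 3 and 1 on these arrays. The mean over probes gave 0 for miR-125b-1-3p and 1 for miR-532-5p, and subtracting the other arrays gave 2 for miR-140-5p. The causes were not tested, except that the threshold and the averaged dim probe act by construction.

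The count of 8 genes with mock levels more than 1 apart between lines stayed between 7 and 9 under the alternatives, and between 8 and 9 when 1 array was left out. Dim probes limit CD9 and TSPAN1 in 786-O, TSPAN14 in PC3 and CD82 outside 786-O. They also limit TSPAN1 and TSPAN13 in T24, TSPAN14 in C4-2 and T24, and TSPAN6 in C4-2 and 786-O. Raw mock signals of these were 29.1 to 87.2.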
